A study of Mus musculus with 32 samples.

Results

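The 55 features described here each had similar mean levels in all 4 excitatory neuron populations of the study. They had lower mean levels in all 4 inhibitory ones. They were chosen by their measured levels from a table of 56459 features, under 3 conditions on CPM (a feature's count as parts of 1000000 counts of its library). The first was 1 CPM or more in each of the 16 glutamatergic libraries, which 11960 features met. The second was a lowest glutamatergic group mean at least 2 times the highest GABAergic group mean, which left 118. The third was a highest glutamatergic group mean under 2 times the lowest, which left the 55 members. All 32 libraries entered these conditions, so the contrast between the classes and the evenness among the glutamatergic groups are descriptions here and carry no test.

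RNA described in the labels as associated with ribosomes was sequenced from mouse neurons, in 8 groups of 4 libraries. The glutamatergic groups were CamK cortex, Scnn cortex, CamK hippocampus and Grik hippocampus, and the GABAergic groups were PV cortex, SST cortex, VIP cortex and SST hippocampus. Every library is labelled wild type (WT), and the labels used here name no treatment, age or strain. The labels do not explain the names. In this field each one usually stands for the driver gene of a Cre line that switches on a tagged ribosomal protein, so each group holds whatever cells that driver marks. CamK drivers mark excitatory neurons broadly, the Scnn driver is used for the input layer of the cortex and the Grik driver for the CA3 field. The names PV, SST and VIP belong to 3 classes of inhibitory interneuron.

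Glutamatergic neurons excite their targets by releasing glutamate, which vesicular transporters load into synaptic vesicles. GABAergic interneurons make GABA from glutamate and inhibit their targets. A gene used evenly by all excitatory neurons and little by inhibitory ones is a candidate part of the program common to the class, such as transmitter loading, dendritic spine signalling or class-defining transcription factors. The table names features only by codes that begin with GSMG. No gene name stands beside them, and 0 of the 56459 were found in the reference gene tables. The members therefore cannot be placed in such roles, no sequence can be printed for them, and neither the populations' names nor the marker genes of glia and vessels could be checked. At most 2 identifiers per ranking or direction are given.

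Total counts per library ran from 100158438 to 114153919, except for SST hippocampus replicate 1 at 186505391. One GABAergic and one glutamatergic library stood apart for the members. VIP cortex replicate 3 was the highest of the 16 GABAergic libraries for 35 of the 55 members, and Scnn cortex replicate 2 the lowest of the 16 glutamatergic libraries for 17. These counts were 24 and 16 after scaling by TMM (trimmed mean of M values, which sets libraries to a common level of their bulk of features), and 25 and 11 by DESeq2 size factors. The same counts were not made over the 11960 features, so they cannot be read as a trait of the members. In VIP cortex replicate 3 the members took 0.769% of all counts, against 0.573% to 0.656% in the other VIP libraries. In Scnn cortex replicate 2 they took 2.04%, against 2.35% to 2.45% in the other Scnn libraries. That Scnn library also held 12.96% of its counts in a pair of very abundant features (GSMG0038934 and GSMG0023431, singled out in earlier work on these data), against 2.56% to 6.78% in the other Scnn libraries, and a large share in few features lowers the CPM of the rest. Its part in the members' values was not tested.

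The members together made up 2.04% to 2.60% of the counts in the 16 glutamatergic libraries and 0.352% to 0.769% in the 16 GABAergic ones. The classes did not overlap in this share, as the choice of members fixes. Within the GABAergic class the share was lowest in PV cortex (0.359% ± 0.008, SD, n = 4), near equal in SST cortex (0.469% ± 0.011) and SST hippocampus (0.476% ± 0.023), and highest in VIP cortex (0.645% ± 0.090). The libraries of both SST groups overlapped, while those of PV lay below and those of VIP above all of them by column totals. By TMM PV still lay below, at 0.351% to 0.371%, but VIP at 0.4875% to 0.619% overlapped SST hippocampus at 0.447% to 0.507%. In such bulk RNA a low level in an interneuron group can come from a low level in every cell or from a small amount of RNA of excitatory cells, and these cannot be told apart.

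**Figure D1:**
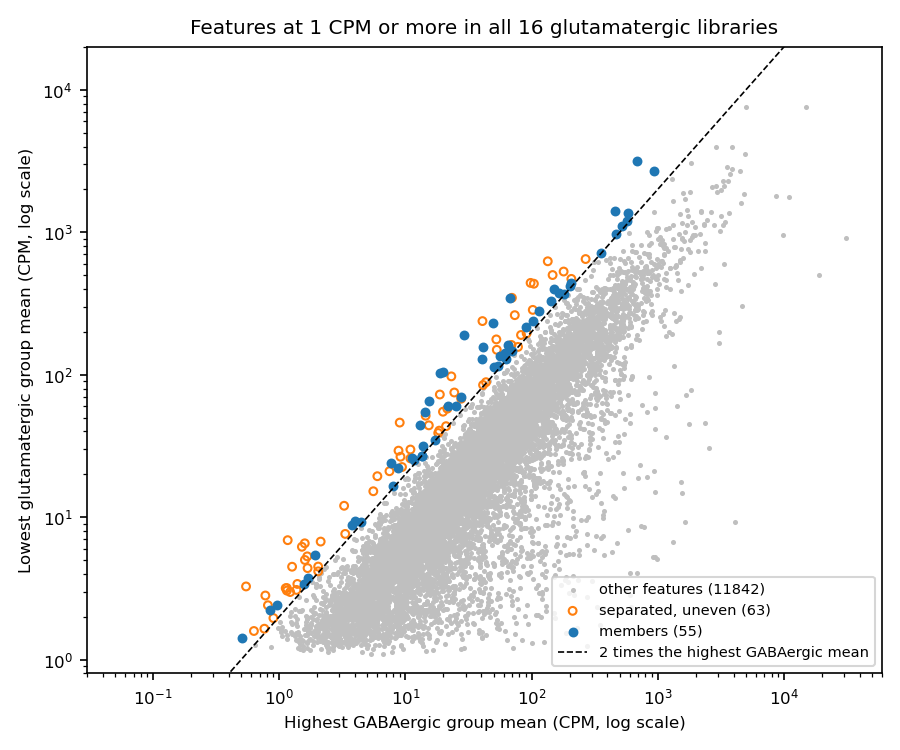
Each point is 1 of the 11960 features at 1 CPM or more in all 16 glutamatergic libraries. The x axis is the highest GABAergic group mean and the y axis the lowest glutamatergic group mean, both in CPM on log scales. Filled blue points are the 55 members, open orange points the 63 features that were separated but uneven, and the dashed line is 2 times the highest GABAergic mean. Most members lie just above the dashed line, from the lowest to the highest levels.

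Most members lay close to the limit that chose them. The ratio of the lowest glutamatergic to the highest GABAergic mean had a median of 2.37 and ranged from 2.0014 to 6.51, and 13 of 55 members reached 3, 7 reached 4 and 4 reached 5. The members nearest to the limit had ratios of 2.0014 and 2.0017, and the nearest features outside it, which met the other conditions, 1.967 and 1.966. Taken over class means rather than extremes, the members were 2.92 to 15.4 times higher in the glutamatergic class (median 4.68), where all 11960 features had a median ratio of 0.956. In 54 of 55 members the lowest glutamatergic library lay above the highest GABAergic library, in 46 by at least 1.5 times and in 17 by at least 2 times. The exception was a scarce member with 1.32 CPM in its lowest glutamatergic and 1.43 CPM in its highest GABAergic library. The rule set the group means of these same libraries at least 2 times apart, so this order of libraries largely follows from it.

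The members spanned more than 3 orders of magnitude in level. Their mean over the glutamatergic groups ranged from 1.95 to 4384 CPM with a median of 151, above the median of 26.4 CPM over the 11960 features. Of the 55, 46 had a lowest glutamatergic mean of at least 10 CPM, 31 of at least 100 and 6 of at least 1000. The deposited length per feature, whose unit is not stated, had a median of 1810 in members (545 to 9611) and 1427 in the 11960. Per 1000 of this length the glutamatergic level was 82.6 CPM at the median of members and 18.5 CPM at that of the 11960, so members were also the more abundant per length. The first condition was met by all 11960 features as well as by the members, and no test was made of this difference.

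Members were present in interneurons as well, at a reduced level. None was at 0 in any library, and 47 of 55 had 1 CPM or more in all 32 libraries. Relative to a member's mean over the glutamatergic groups, the median level was 12.8% in PV cortex (range 3.01% to 41.5%), 22.9% in SST cortex (2.36% to 42.3%), 21.1% in SST hippocampus (5.14% to 42.3%) and 29.5% in VIP cortex (10.6% to 43.3%). The upper ends of these ranges are capped by the rule, and the lower ends are not.

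**Figure D2:**
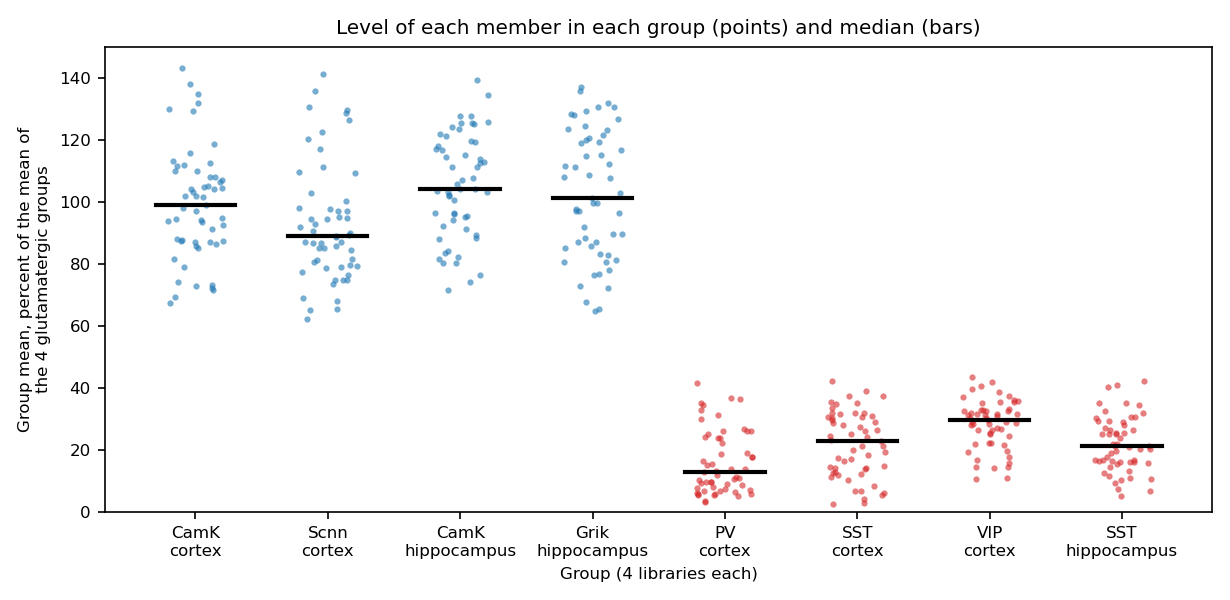
The y axis is the mean of 4 libraries as a percent of the member's mean over the 4 glutamatergic groups, and the x axis the 8 groups, glutamatergic in blue and GABAergic in red. Each point is 1 of 55 members and each bar the median over members. The GABAergic medians run from 12.8% in PV cortex to 29.5% in VIP cortex.

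Separation was widest for GSMG0007324 and GSMG0032249. GSMG0007324 was at 175, 220, 215 and 202 CPM in CamK cortex, 191, 170, 219 and 187 in Scnn cortex, 366, 313, 338 and 331 in CamK hippocampus and 367, 373, 425 and 359 in Grik hippocampus. In the interneurons it was at 7.80, 7.86, 8.30 and 9.56 CPM in PV cortex, 5.36, 5.27, 8.197 and 7.38 in SST cortex, 22.1, 27.7, 43.8 and 24.0 in VIP cortex and 30.2, 32.7, 27.8 and 21.4 in SST hippocampus. All hippocampal excitatory libraries were above all cortical ones, and SST hippocampus and VIP cortex were above PV and SST cortex without overlap. Its lowest glutamatergic mean was 6.51 times its highest GABAergic mean, and it was at the same time the member nearest to the limit on evenness, with a highest glutamatergic mean 1.99 times the lowest. The first features beyond that limit had 2.03 and 2.04.

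GSMG0032249 had a ratio of 5.46 and was more even, at 1.57. Over the 16 glutamatergic libraries its lowest, median and highest values were 85.5, 135 and 176 CPM, and over the 16 GABAergic ones 5.82, 9.16 and 29.3. The extremes nearest each other came from Scnn cortex replicate 2 and VIP cortex replicate 3, and without the latter the ratio was 6.74.

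The highest levels were those of GSMG0040582 and GSMG0024983. GSMG0040582 stood at 4564 ± 281 CPM in CamK cortex, 5946 ± 432 in Scnn cortex, 3859 ± 452 in CamK hippocampus and 3167 ± 330 in Grik hippocampus (SD, n = 4 each). In the interneurons it stood at 225 ± 35.7 CPM in PV cortex, 288 ± 22.6 in SST cortex, 690 ± 250 in VIP cortex and 225 ± 10.8 in SST hippocampus. Its VIP libraries were at 481, 706, 1036 and 537 CPM, all above every other GABAergic library. Per 1000 of deposited length its mean over the glutamatergic groups was 3401 CPM, the highest of the 55 members. GSMG0024983 stood at 2703 ± 65.4, 3754 ± 573, 4644 ± 230 and 3849 ± 376 CPM in the same glutamatergic order, and between 656 ± 29.3 CPM (PV cortex) and 937 ± 146 CPM (SST hippocampus) in the interneurons. For this member the interneuron groups differed by only 1.43 times between highest and lowest.

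The most even members of at least 20 CPM were GSMG0001534 and GSMG0011769. GSMG0001534 was at 74.5 ± 1.604 CPM in CamK cortex, 78.4 ± 7.87 in Scnn cortex, 67.4 ± 12.5 in CamK hippocampus and 65.8 ± 7.65 in Grik hippocampus, a highest mean 1.19 times the lowest. The libraries of these groups overlapped except for Grik hippocampus and CamK cortex, whose ranges of 54.6 to 70.8 and 72.6 to 76.5 CPM did not meet. In interneurons its 16 libraries ran from 6.99 to 21.4 CPM. GSMG0011769 ran from 1293 to 1846 CPM over the 16 glutamatergic libraries and from 347 to 553 CPM over the 16 GABAergic ones, with a ratio of 1.21 between its glutamatergic means and 1.29 between its GABAergic means, the smallest of the latter among members.

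**Figure D3:**
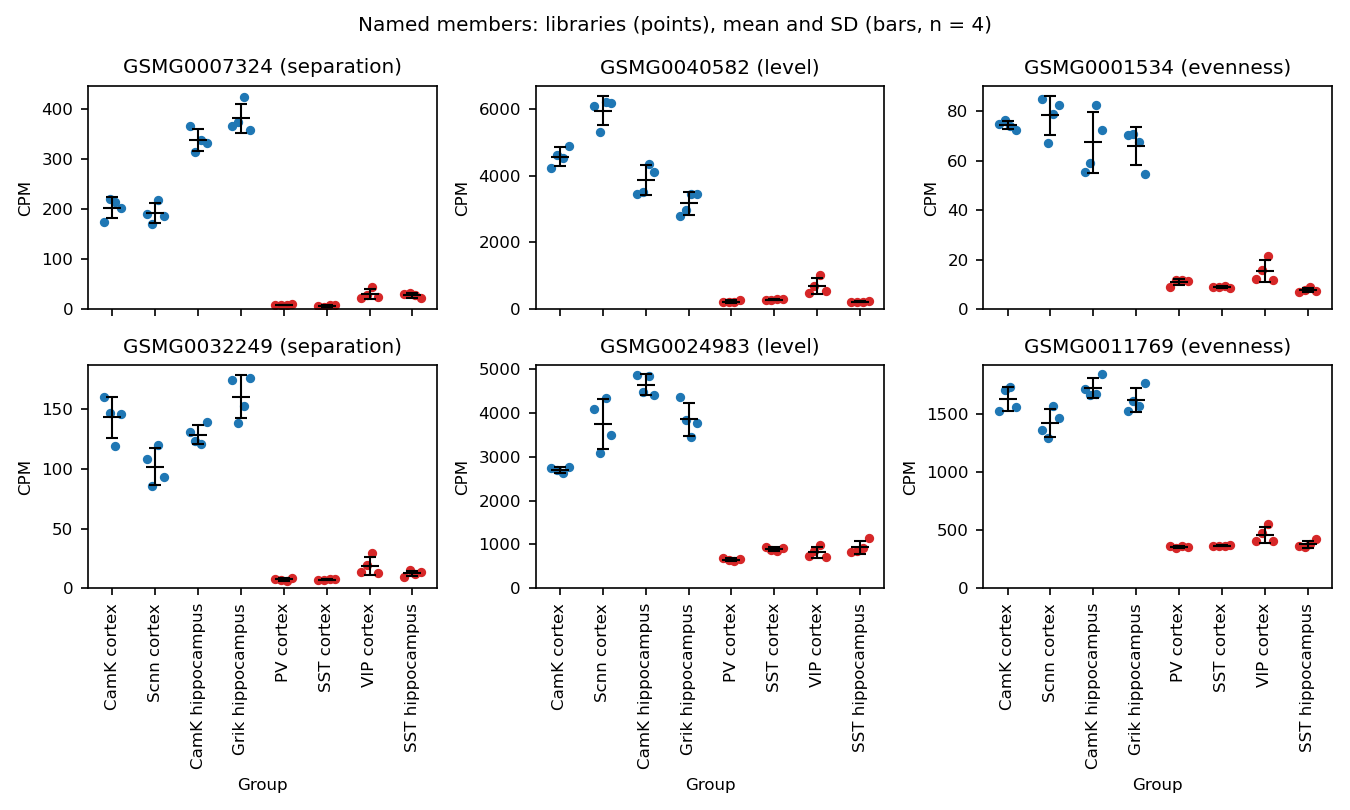
Each panel is 1 member, with the ranking that named it in brackets. The x axis is the group and the y axis CPM from 0. Points are libraries (blue glutamatergic, red GABAergic) and black bars the mean and SD of 4 libraries. All 16 glutamatergic libraries of each panel lie above its 16 GABAergic ones, and VIP cortex replicate 3 is the highest interneuron library in 5 of the 6 panels.

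Evenness was a matter of degree. The highest glutamatergic mean exceeded the lowest by 1.19 to 1.99 times, with a median of 1.58, while the 11960 features had a median of 1.51. In 21 members it stayed under 1.5 times. The lowest glutamatergic group was Scnn cortex for 22 members, Grik hippocampus for 16, CamK cortex for 11 and CamK hippocampus for 6. Over the 11960 features the same order held, with 4142, 3803, 2102 and 1913 features, and the members' shares were near these. Under scaling by TMM Scnn cortex was lowest for 29, CamK cortex for 9, Grik hippocampus for 9 and CamK hippocampus for 8. Scnn cortex was then lowest for 52.7% of members and 43.7% of the 11960 features. Without Scnn cortex replicate 2 Scnn was still lowest for 20 by column totals and for 27 by TMM. The highest group was CamK hippocampus for 20 members and Grik hippocampus for 17 by column totals, an order that turned to 16 and 22 by TMM. By column totals these were 36.4% and 30.9% of members, where the groups were highest for 30.1% and 24.4% of the 11960 features.

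Some members were ordered by region among excitatory neurons. In 21 of 55 members both hippocampal means were above both cortical means, and in 10 both cortical means were above both hippocampal ones. The evenness condition used these same means. No such count was made over the 11960 features, so these numbers cannot be read as a trait of the members. The hippocampal groups are the ones whose titles carry a W before the replicate number while CamK and Scnn cortex have plain numbers, so the difference in titles cannot be told apart from that between regions. Among the 63 features that were separated from interneurons but uneven, the lowest group was Scnn cortex for 22 and each of the remaining groups for 13 or 14, and the highest was Grik hippocampus for 22.

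**Figure D4:**
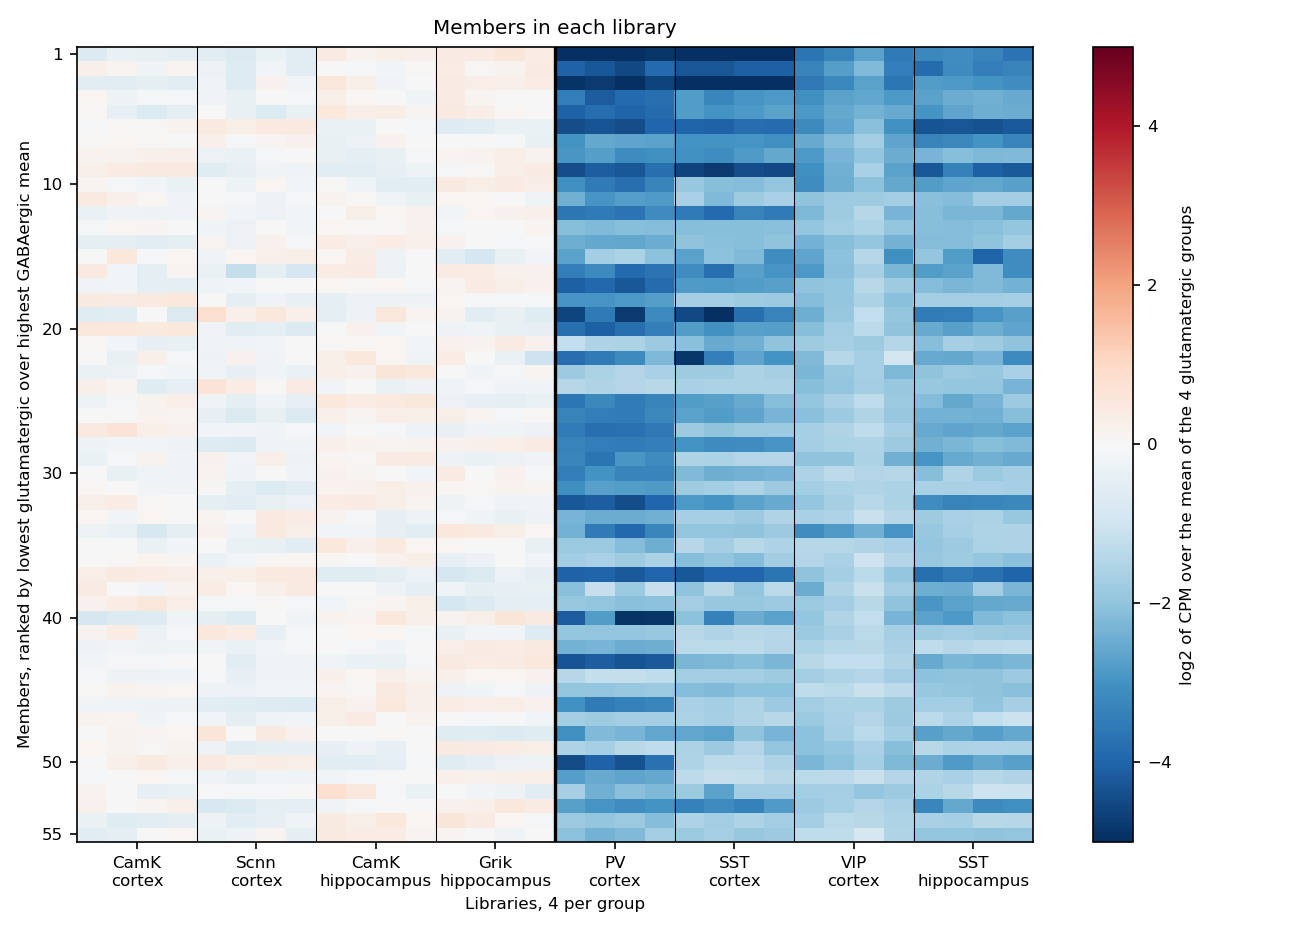
Rows are the 55 members, ranked from the widest separation, and columns the 32 libraries in groups of 4. Colour is log2 of CPM over the member's mean of the glutamatergic groups, and the few values below the colour scale take its lowest colour. The left side stays near 0, and on the right the darkest rows lie in PV and SST cortex.

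Replicates of the members spread most in VIP cortex. The median coefficient of variation over members (SD over mean of 4 libraries) was 8.34% to 11.6% in the glutamatergic groups, where all 11960 features had medians of 8.74% to 11.5%. It was 12.1% in PV cortex (9.94% over all features), 8.59% in SST cortex (8.50%) and 10.7% in SST hippocampus (9.55%). In VIP cortex it was 18.7% over members and 7.90% over all features, and VIP cortex replicate 3 carried much of it. Without that library the medians were 10.2% over members and 7.28% over all features.

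Differences among the interneuron groups were not the contrast of the rule, which fixed only the highest GABAergic mean, and were tested with edgeR's quasi-likelihood test over all 24555 features kept by a filter on low counts. A feature was called at a Benjamini-Hochberg adjusted p under 0.05 and a difference of at least 2-fold. All 55 members passed the filter, and because they are at 1 CPM or more in 16 libraries they had to pass it. The rule removes features that are high in any interneuron group, so the calls among members are those left after this cap. CPM values of these tests are TMM-normalised, and TMM factors were 1.14 to 1.24 in VIP cortex against 0.96 to 1.06 in the other interneuron groups, which lowers VIP values by that much relative to column totals.

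Some difference among the 4 interneuron groups was called for 32 of 55 members (58.2%), against 42.2% of all features tested. The largest fitted difference between any pair of groups had a median of 1.18 on the log2 scale in members and 1.23 over all features. The tests of single pairs called 30 of these 32 members and no other member. They share groups, since SST cortex enters 3 of the 4 pairs and PV and VIP cortex enter 2 each, so their calls are not independent of each other. By adjusted p alone, with no limit on size, the test of any difference called 53 of 55 members, against 72% of all features. For SST hippocampus against SST cortex it was 21 of 55 members, against 22% of all features. For PV against SST cortex it was 33 of 55, against 38.8% of all features. VIP against PV cortex had 44 of 55, against 55.6%, and VIP against SST cortex 39 of 55, against 50.7%. In these and the following shares the features tested were not matched to the members in level. The part of level in the shares was not tested.

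PV cortex held the lowest interneuron level of most members, 34 of 55 by column totals and 32 by TMM. These are 61.8% and 58.2% of members, where PV was lowest for 39.5% and 30.3% of the 11960 features. Against SST cortex 14 members were called (25.5%), where 15.2% of all features were. All 14 were lower in PV, where 9.08% of all features were lower, and 0 were called higher, where 6.08% of all features were. At an unadjusted p under 0.05 in edgeR, 28 of 55 members were lower and 9 of 55 higher in PV, where 24% and 21.8% of all features were. DESeq2 also called 14 lower and 0 higher, where it called 9.08% and 6.9% of all features. The median log2 difference was -0.31 over members and 0.04 over all features. The 4 PV libraries did not overlap the 4 SST libraries in 32 of 55 members and in 37.4% of all features. Among the 14 called members this held for 13. The exception was GSMG0005549, named because it is the only one, at 0.34 ± 0.26 CPM in PV against 0.83 ± 0.29 CPM in SST cortex.

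The largest difference was that of GSMG0035769, at 7.82, 10.03, 8.39 and 12.6 CPM in PV cortex and 57.0, 68.9, 65.9 and 56.1 CPM in SST cortex. Its log2 difference was -2.68 (SE 0.14, edgeR adjusted p = 2.25e-16). GSMG0033094 was next, at 68.6, 74.8, 67.7 and 71.3 CPM in PV and 262, 279, 287 and 265 CPM in SST, a log2 difference of -1.95 (SE 0.08, edgeR adjusted p = 9.71e-20). For both members every PV library lay far below every SST library, while in excitatory libraries they ran from 112 to 237 and from 915 to 1888 CPM by column totals.

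VIP cortex held the highest interneuron level of 32 members by column totals and of 25 by TMM. These are 58.2% and 45.5% of members, where VIP was highest for 37.3% and 21.7% of the 11960 features. Without VIP cortex replicate 3 it was highest for 28 and 23 members. Against PV cortex 25 members were called (45.5%), where 29.6% of all features were. All 25 were higher in VIP, where 20.7% of all features were higher, and 0 were called lower, where 8.87% of all features were. At an unadjusted p under 0.05 in edgeR, 38 of 55 members were higher and 6 of 55 lower in VIP, where 33.8% and 26.7% of all features were. DESeq2 called 27 higher and 0 lower, where it called 22.8% and 8.36% of all features. The median log2 difference was 0.74 over members and 0.23 over all features by TMM, and 1.01 and 0.49 by column totals. Without VIP cortex replicate 3, 22 of 55 members were called higher, where 4502 of 25114 features were.

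GSMG0033094 differed most between VIP and PV, with 432, 461, 451 and 414 CPM in VIP cortex against the PV values above (log2 difference 2.64, SE 0.08, edgeR adjusted p = 4.25e-23). Over the interneurons this member therefore had the order PV, then both SST groups at 226 to 287 CPM, then VIP, with no overlap between these 3 levels. GSMG0006199 was at 69.9, 84.1, 97.9 and 93.4 CPM in VIP and 17.5, 17.9, 15.0 and 20.2 CPM in PV (log2 difference 2.29, SE 0.11, edgeR adjusted p = 7.56e-18). Its SST cortex libraries, at 40.7 to 54.5 CPM, lay between.

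Against SST cortex 11 members were called higher in VIP, where 18.1% of all features were, and 1 lower, where 5.68% of all features were. Together these were 21.8% of members and 23.7% of all features. With the 2-fold limit the share of members was near that of all features. By adjusted p alone 39 of 55 members were called, against 50.7% of all features. The number of members with the higher mean in VIP depended on the scaling: VIP was above SST cortex in 40 of 55 members by column totals and in 31 by TMM. The median log2 difference of members was 0.14 by TMM and 0.36 by column totals, while that of all features was 0.07 and 0.29.

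GSMG0034459 was at 21.1, 32.9, 55.3 and 29.01 CPM in VIP and 8.34, 7.72, 9.35 and 9.10 CPM in SST cortex (log2 difference 2.003, SE 0.21, edgeR adjusted p = 9.63e-09). Its VIP libraries were spread over more than 2 times, and without VIP cortex replicate 3 the log2 difference was 1.68. The fit shared each feature's estimate of spread over all groups, so SEs of VIP contrasts do not measure the VIP spread alone. GSMG0014748 had 35.5, 42.9, 52.8 and 38.8 CPM in the VIP libraries against 8.70, 10.9, 10.2 and 13.1 CPM in those of SST cortex (log2 difference 1.99, SE 0.13, edgeR adjusted p = 4.11e-14). The only member called lower in VIP, GSMG0050980, had means of 5.18 ± 0.98 CPM in VIP against 11.1 ± 0.68 CPM in SST cortex (log2 difference -1.10, SE 0.21, edgeR adjusted p = 7.22e-05). It passed the 2-fold limit narrowly and dropped under it by column totals (-0.87) and without VIP cortex replicate 1, 2 or 4 or SST cortex replicate 4 (-0.91 to -0.99).

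VIP libraries also differed from the other interneuron libraries in other ways. They had 15406 to 16044 features at 1 CPM or more, against 13761 to 14334 in the PV and SST libraries, and VIP cortex replicate 3 had the most. The pair of very abundant features took 3.63% to 6.73% of VIP counts and 0.533% to 3.46% of PV and SST counts. The W also stands in the VIP titles and is absent from those of PV and SST cortex, so this difference in titles cannot be told apart from that between the populations. The part of these differences in the members' values was not tested.

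Between SST hippocampus and SST cortex 5 members were called (9.09%), where 7.46% of all features were. Of these, 3 were higher in the hippocampus (3.92% of all features were) and 2 lower (3.54% of all features were). With the 2-fold limit the share of members called was near that of all features. By adjusted p alone 21 of 55 members were called, against 22% of all features. The median log2 difference was 0.08 over members and 0.02 over all features, and in 23 of 55 members the libraries of the regions did not overlap, where 25.2% of all features did not.

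The members higher in hippocampal SST neurons were led by GSMG0024124, at 21.8, 20.5, 18.0 and 17.5 CPM in hippocampus and 4.22, 3.12, 4.44 and 4.41 CPM in cortex (log2 difference 2.26, SE 0.18, edgeR adjusted p = 9.22e-11). GSMG0007324, the member of widest separation, followed with 30.1, 32.3, 26.1 and 21.3 CPM against 5.24, 5.35, 7.86 and 7.19 CPM (log2 difference 2.10, SE 0.15, edgeR adjusted p = 1.83e-11). The lowest hippocampal library was more than 2 times the highest cortical one for both. Among excitatory neurons, by column totals, GSMG0024124 had means of 173 ± 39.4 CPM in CamK hippocampus and 105 ± 2.67 CPM in CamK cortex, and GSMG0007324 of 337 ± 21.8 and 203 ± 20.3 CPM. The mean of both was thus higher in the hippocampus in CamK and in SST neurons. Scnn cortex had means of 135 ± 31.7 CPM of GSMG0024124 and 192 ± 20.3 CPM of GSMG0007324. In VIP cortex, a cortical group whose titles carry the W, GSMG0024124 was at 10.8 to 19.2 CPM by TMM. GSMG0007324 was at 18.8 to 35.3 CPM there, and both members lay above all their SST cortex values. The excitatory values were limited by the rule and are given without a test, and in SST as in CamK the hippocampal titles carry the W.

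In the other direction GSMG0035769 was at 29.9, 23.6, 26.8 and 25.9 CPM in hippocampal and 57.0, 68.9, 65.9 and 56.1 CPM in cortical SST neurons (log2 difference -1.22, SE 0.13, edgeR adjusted p = 2.72e-08). This member had thus its highest interneuron level in SST cortex, where it was also far above PV cortex. Its log2 difference stayed between -1.18 and -1.30 when any 1 library was left out. Without SST hippocampus replicate 1, the library of greatest depth, 4 of 55 members were called between the regions, this one among them. Of all features tested in that setting 1643 of 25446 were called.

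**Figure D5:**
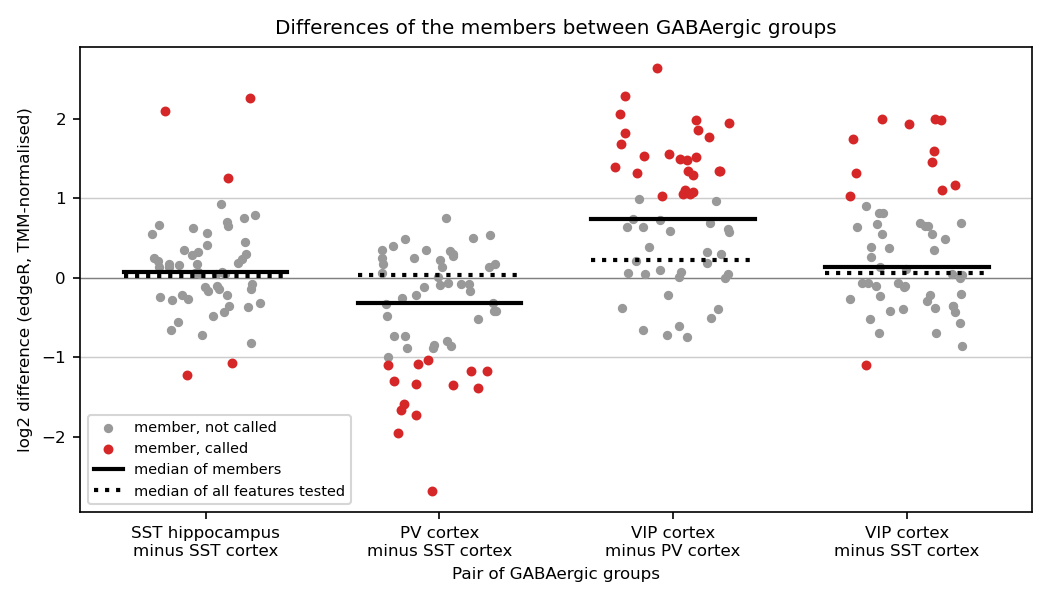
The x axis is the pair of interneuron groups and the y axis the log2 difference fitted by edgeR, TMM-normalised. Each point is 1 of 55 members, red where called and grey where not, solid bars are medians of members and dotted bars medians of all 24555 features. Called members lie on the lower side for PV minus SST cortex (14 of 14) and on the higher side for VIP minus PV cortex (25 of 25).

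To describe how the membership depends on single libraries, each library was left out in turn and members were chosen from the other 31. The remaining libraries of its group still helped to choose them. Each leave-out chose 50 to 55 of the 55 members, so the sums below count most members many times. They are a description and no test. Over the 16 glutamatergic libraries the left-out library was at least 2 times the highest GABAergic mean for 818 of 878 members so chosen (93.2%). Over the 16 GABAergic libraries the left-out library was at most 50% of the lowest glutamatergic mean for 817 of 876 (93.3%). The weakest cases were VIP cortex replicate 3, with 34 of 65 members (52.3%), and Scnn cortex replicate 2, with 42 of 57 (73.7%). The share was 88.9% or more for every other library. In all 32 leave-outs, 38 of the 55 members were chosen each time.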

How the data were processed

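The authors deposited 1 table of expected counts (estimated read counts that need not be whole; 20.1% of values above 0 were whole within 1e-06) for 56459 features in 32 libraries. A column-purification kit (RNeasy Plus Micro) and a stranded TruSeq kit for polyadenylated RNA were used, per the labels' protocols. Per the submitters' processing notes, the build was GRCm38 and the tools included featureCounts, SAMtools, Picard and FastQC. No source used here gives the aligner, annotation or counting mode, so overlapping, antisense and near-identical features are uncertain. A further 12 columns whose names match no sample were not used. The deposited length was used for per-length levels.

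Samples were grouped by title and tissue. The members, lists and tests were chosen with earlier results of these data known. Counts were rounded and fitted with edgeR 4.0.16 in R 4.3.3 (filterByExpr, TMM, robust quasi-likelihood, 1 coefficient per group, 32 libraries, 24 residual degrees of freedom, common biological coefficient of variation 0.253). A standard error is the log2 difference over the square root of F. Nothing used here says whether replicates came from separate animals, so p-values measure the spread between these samples. Named members were the first 2 by separation, level and evenness (the last at 20 CPM or more). In each pair they were the 2 largest called differences each way with at least 5 CPM in the higher group and no overlap. On simulated SST hippocampus against SST cortex counts (23502 features), 40 of 67 features made to differ 1.5-fold reached an adjusted p under 0.05. So did 61 of 67 at 2-fold, 63 of 66 at 4-fold and 5 of 23302 left as they were. The 2-fold limit of the calls was not applied there, so these are not recovery rates of the calls. The features made to differ were drawn from those with a mean above 1 CPM. Counts were drawn with the same fitted spread in every group, so outlying libraries were not simulated. Alternatives were DESeq2 1.42.0, other scalings and filters, a replicate block and leaving out libraries.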

Additional observations from a re-analysis of the deposited data

Results flagged for a closer look

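In 136 groups of 4 libraries (4 library measures and 13 named members in 8 groups) 5 values lay far from the other 3 of their group, and chance gives about 1 in 20. The level of the median member in Scnn cortex replicate 2 was 80.85% of its glutamatergic mean, where the other Scnn libraries had 89.34% to 90.87%. In the same library GSMG0040582 was at 5302 CPM, against 6101 to 6216 in the others. SST hippocampus replicate 1 had 186505391 counts, against 109141183 to 114153919. SST hippocampus replicate 3 had 14334 features at 1 CPM or more, against 14092 to 14128. GSMG0034459 was at 20.25 CPM in SST hippocampus replicate 2 and at 11.01 to 12.38 CPM in the others.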

How the results depend on the processing

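The number of members depended on the scaling and the limits. By TMM-scaled CPM 85 features met the rule, among them 50 of the 55, and by DESeq2 size factors 80, among them 51. At least 3 times the highest GABAergic mean left 13, evenness under 1.5 times left 21, and 5 CPM in place of 1 left 49. Leaving out 1 library gave 50 to 65 members, the highest without VIP cortex replicate 3.

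By adjusted p alone 53 of 55 members were called for any difference among the interneuron groups, against 72% of all features. For SST hippocampus against SST cortex these were 21 of 55 members and 22% of all features. For PV against SST cortex they were 33 of 55 and 38.8%. They were 44 of 55 and 55.6% for VIP against PV cortex, and 39 of 55 and 50.7% for VIP against SST cortex. Here too the features tested were not matched to the members in level. With the 2-fold limit, leaving out 1 library gave 30 to 33, 4 to 6, 12 to 14, 20 to 27 and 10 to 13 called members in the same order. Of the 25114 to 25472 features then tested, 9804 to 10662, 1567 to 1807, 3485 to 3808, 6619 to 7441 and 5234 to 5927 were called. Under the other filters, DESeq2, its size factors, the interneuron libraries alone and column totals (added after the data were seen) every count stayed within 1.5 times. With a replicate block the counts were 32, 5, 14, 25 and 12, as without it. Of the 24555 features, 10208, 1780, 3663, 7214 and 5828 were called with the block. Same-numbered libraries had correlations of -0.069 to 0.111, so the numbers were not taken to pair the libraries.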

Other observations

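The rule turned around, with even and separated features of the GABAergic class, gave 116 features by column totals where the glutamatergic rule gave 55. By TMM-scaled CPM the numbers were 79 and 85, and by DESeq2 size factors 84 and 80, so the order of the classes turned with the scaling. Without the condition of evenness 236 features were separated on the GABAergic side and 118 on the glutamatergic side by column totals.

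Of the members' values above 0, 1.93% were whole within 1e-06, where 20.1% of all values above 0 in the table were.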
